A study of Mus musculus with 14 samples.

Results

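The small leucine-rich proteoglycans (SLRPs) were followed in embryoid bodies (EBs) made from mouse embryonic stem cells (ESCs) with and without knockdown of DIS3L2, a cytoplasmic exoribonuclease. The set comprised 10 genes of the 50686 in the count table: Dcn, Bgn and Aspn of class I, Fmod, Lum, Prelp, Kera and Omd of class II, Ogn of class III and Podn of class V. The genes were selected on their levels in these same libraries, so the differences between the lines are given as a description and not as a test. Of the 10, 9 had reads in at least 1 library and 8 are in the authors' table of normalized values.

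SLRPs are secreted matrix proteins whose core is a curved stack of leucine-rich repeats. The cores bind fibrillar collagens and govern how fibrils form and pack, and most carry chondroitin or dermatan sulfate chains (class I) or keratan sulfate chains (class II). Several also bind TGF-β family growth factors or cell surface receptors, and the genes are typical of fibroblasts, tendon, cartilage, bone and cornea.

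The ESCs, which carry an Osr1-GFP reporter, expressed a short hairpin RNA against LacZ as the control (shLacZ) or against DIS3L2 (shDIS3L2). Each line was taken undifferentiated in LIF/2i medium (d0) and then, as EBs without LIF/2i, every 2 days up to d12, which gave 7 libraries per line and 1 for each line on a given day. Each late library is RNA from whole EBs of mixed cell types, in which fewer cells of a type and less RNA per cell cannot be told apart. Neither the number of clones nor of cultures behind a line is known from the labels, and no difference has a replicate check or a p-value.

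Libraries held 7178712 to 39888099 reads counted on genes. Levels are given as CPM, the reads of a gene scaled to the total of its library. A floor of 3 reads equalled 0.0752 CPM at the greatest depth and 0.418 CPM at the lowest. Each fold is the ratio of CPM in shDIS3L2 to that in shLacZ with its 95% Clopper-Pearson interval, which reflects counting error alone and says nothing of other cultures of the lines. Dis3l2 itself, in shDIS3L2, was 0.137 times the shLacZ level at d0 (95% interval 0.111 to 0.167), then 0.281 (d2), 0.321 (d4) and 0.552 times (d6). It was 0.971 times on d8 (0.837 to 1.13), 0.95 times on d10 (0.788 to 1.15) and 0.754 times on d12 (0.609 to 0.934), so that libraries labelled shDIS3L2 showed no detectable knockdown on d8 and d10, days on which the proteoglycans differed.

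At d12, 7 of the 10 SLRP mRNAs (8 could be compared) were at least 3-fold higher in shDIS3L2 than in shLacZ EBs, beside 8.1% of all genes compared. Where both lines had reads, these ratios ran from 7.79 for Bgn to 197 for Fmod. The ratio of Fmod rests on 3 reads in shLacZ, with an interval of 67.0 to 956. Aspn, Fmod, Prelp and Ogn passed 3 reads in either line no earlier than d8. Summed over the 10 genes, shLacZ held 0.953 CPM and shDIS3L2 0.416 CPM at d0, 8.79 and 11.3 CPM at d2, 14.6 and 6.77 CPM at d4 (0.463-fold, 0.357 to 0.602), and 14.4 and 22.0 CPM at d6. It reached 81.5 and 539 CPM at d8, 81.5 and 1115 CPM at d10, and 62.3 and 759.8 CPM at d12. The sum was therefore higher in shDIS3L2, by 6.62-fold on d8 (6.26 to 7.01), 13.7-fold on d10 (12.7 to 14.8) and 12.2-fold on d12 (11.3 to 13.3). Podn was lower in shDIS3L2 from d4 to d12, the only member to be so from d6 on, while Lum and Bgn were also lower at d4. Dcn had 4 reads in each line at d4, a ratio of 0.347 whose interval spans 1 (0.0646 to 1.86).

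**Figure D1:**
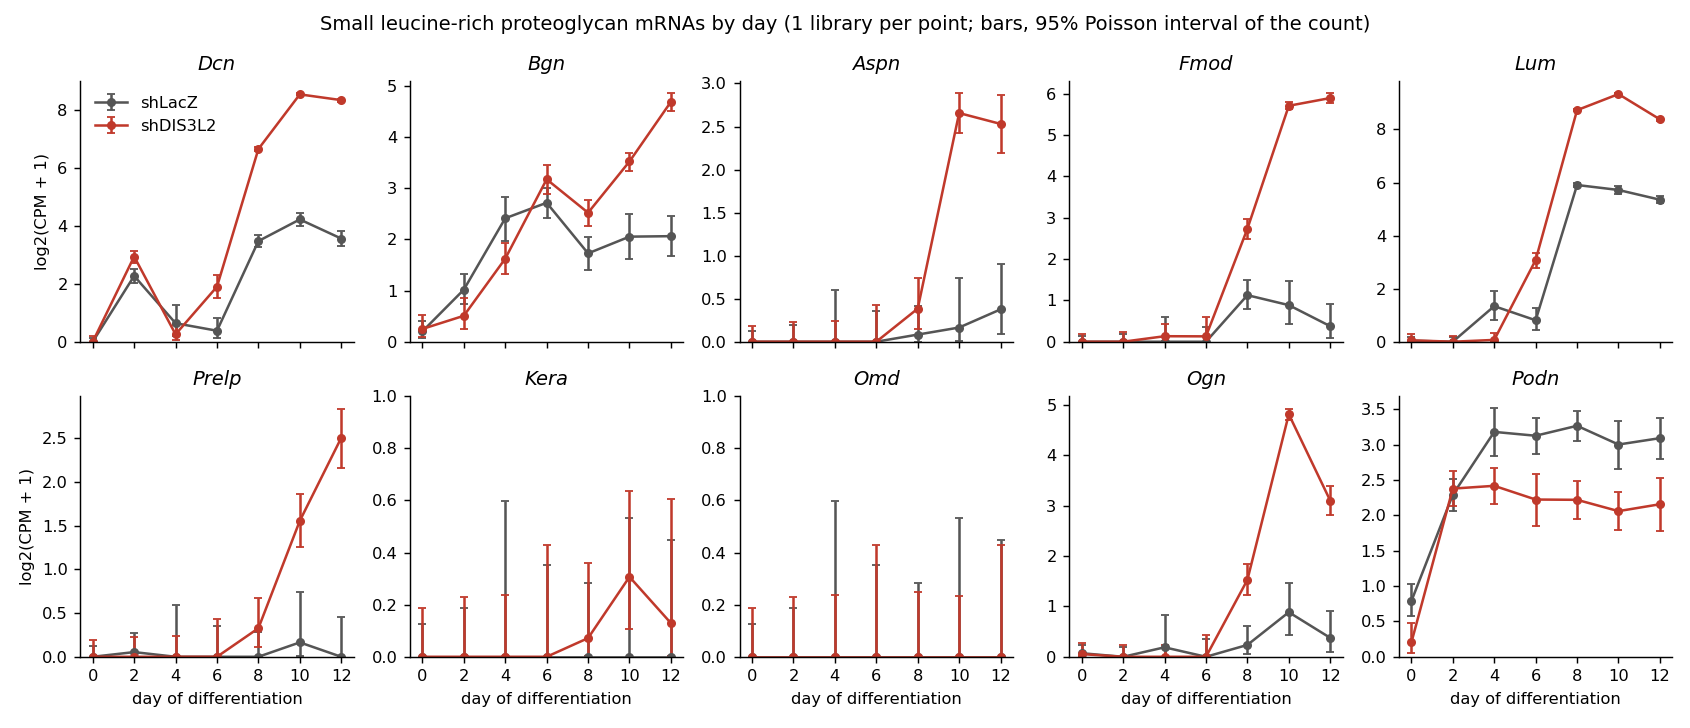
Level of each gene by day in shLacZ (grey) and shDIS3L2 (red), as log2(CPM + 1) on a scale of its own in each panel, with 1 library per point and bars for the 95% Poisson interval of the count. By the 3-fold criterion shDIS3L2 is higher from d6 in Dcn and Lum and from d8 in Fmod and Ogn. From d10 it is also higher in Bgn, Aspn and Prelp, and it is lower only in Lum at d4. Podn is lower in shDIS3L2 from d4 to d12 without reaching 3-fold, and Omd is at 0 throughout.

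A gene was counted as higher or lower where its CPM differed by 3-fold or more and reached 1 in either library of that day. At d0 none of the 10 genes reached 1 CPM, and of all 12161 protein-coding genes compared, 0.584% were higher and 2.25% lower in shDIS3L2. At d2, 3 of the 10 could be compared and none was higher or lower, against 0.114% and 0.129% of all genes. At d4, 3 could be compared, none was higher and Lum was lower, against 0.361% and 1.68%.

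At d6, Dcn and Lum were higher of 4 compared, and none was lower, while 2.7% of all genes were higher and 4.23% lower. At d8, Dcn, Fmod, Lum and Ogn were higher of 6 compared, with a background of 5.47% higher and 3.71% lower. At d10 and again at d12, 7 of the 8 that could be compared were higher, namely all but Podn, with a background of 8.65% higher and 3.13% lower at d10 and of 8.1% and 1.41% at d12. Kera and Omd stayed under 1 CPM throughout and were compared on no day.

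The median log2 fold over the genes above the floor was 2.54 at d8 (8 genes), 4.18 at d10 (9 genes) and 4.28 at d12 (8 genes). With all 10 genes, those at the floor set to their bound, it was 0.91, 3.03 and 3.52. The median of all compared genes lay between 0.01 and 0.05 on these days. At d0 that median was -0.32, so folds at d0 are to be read against that shift.

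Differentiation raised several of the genes in both lines. In shLacZ, Dcn, Bgn, Lum and Podn were at least 3-fold higher at d12 than at d0, all 4 members compared, beside 31.5% of all genes compared. In shDIS3L2 all 8 members compared were, beside 42.9%. The other members were under 1 CPM on both days. From 0 reads at d0, Dcn at d12 was 144 times the level of 3 reads at d0 in shLacZ and 2855 times in shDIS3L2. The 95% lower limits of the 2 folds were 115 and 2321. The rise of Podn was 10.4-fold (6.68 to 16.5) in shLacZ and 22.9-fold (8.24 to 88.6) in shDIS3L2.

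Of class I, decorin (Dcn, ENSMUSG00000019929, chr10:97479609-97518143 of GRCm38) binds collagen fibrils and sequesters TGF-β. Taken in the order of the 7 days from d0 to d12, as for the other genes, Dcn in shLacZ was at 0, 3.83, 0.557, 0.301, 10.1, 17.7 and 10.8 CPM. On the same days shDIS3L2 had 0, 6.68, 0.193, 2.73, 99.7, 371 and 324 CPM of Dcn. Both lines thus showed a small early peak at d2 before the late rise: from d2 to d4 the level changed to 0.146 times (0.0389 to 0.384) in shLacZ and to 0.0289 times (0.00778 to 0.0757) in shDIS3L2. Between the lines Dcn was 1.75-fold higher (1.34 to 2.27) at d2 and 9.09-fold (3.19 to 35.6) at d6. On d8 the difference was 9.85-fold (8.42 to 11.6), on d10 21-fold (17.8 to 24.9) and on d12 29.9-fold (24.7 to 36.6), with no overlap between the intervals of d8 and the later days.

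Biglycan (Bgn, ENSMUSG00000031375, chrX:73483602-73495933), the closest relative of decorin and a ligand of Toll-like receptors, was detected in all 14 libraries. Its levels in shLacZ, from d0 to d12, were 0.15, 1.02, 4.32, 5.56, 2.31, 3.15 and 3.17 CPM. Those in shDIS3L2 were 0.189, 0.421, 2.08, 8.01, 4.73, 10.5 and 24.7 CPM. The direction turned with time: Bgn stood at 0.411 times the shLacZ level (0.17 to 0.9) at d2 and 0.481 times (0.296 to 0.79) at d4. At d6 it was 1.44-fold (1.04 to 1.99) and at d8 2.05-fold (1.4 to 3.06) higher, short of the 3-fold criterion. It was 3.33-fold (2.21 to 5.2) higher on d10 and 7.79-fold (5.39 to 11.6) on d12, with 2.36 times (1.97 to 2.84) the d10 level in shDIS3L2 on d12.

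Asporin (Aspn, ENSMUSG00000021388, chr13:49544443-49567565), a class I protein that lacks the usual attachment site for a glycosaminoglycan chain, had no read in any library from d0 to d6. In shLacZ it was counted with 1 read at d8, 1 at d10 and 3 at d12. In shDIS3L2 it was counted with 6, 112 and 51 reads, which is 0.305, 5.3 and 4.78 CPM. The ratio was 43.8 (7.71 to 1746) at d10 and 16.1 (5.19 to 80.4) at d12, with wide intervals since the shLacZ libraries held no more than 3 reads.

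Of class II, lumican (Lum, ENSMUSG00000036446, chr10:97565128-97572703), a collagen-binding keratan sulfate proteoglycan known for corneal transparency, had the highest level in every library from d8 on. From d0 to d12, shLacZ held 0.0251, 0, 1.53, 0.752, 59.0, 51.7 and 39.9 CPM of Lum. The shDIS3L2 libraries held 0.0378, 0, 0.0483, 7.45, 423, 644 and 332 CPM. Lum was lower in shDIS3L2 at d4, where 1 read against 11 gave a ratio of 0.0315 (0.000733 to 0.217), and higher from d6. The fold was 9.91 on d6 (5.11 to 21.5), 7.17 on d8 (6.71 to 7.66), 12.5 on d10 (11.3 to 13.8) and 8.34 on d12 (7.52 to 9.27). From d10 to d12 it went to 0.516 times its level in shDIS3L2 (0.497 to 0.536) and to 0.771 times in shLacZ (0.672 to 0.886).

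Fibromodulin (Fmod, ENSMUSG00000041559, chr1:134037254-134048277), which binds type I collagen and is abundant in tendon and cartilage, had the largest ratio at d10 and d12 of the members with reads in both lines. It had no read at d0 or d2, 0 and 2 reads at d4 and 0 and 1 at d6 in shLacZ and shDIS3L2. The shLacZ libraries then held 20, 7 and 3 reads at d8, d10 and d12 (1.18, 0.847 and 0.298 CPM). Those of shDIS3L2 held 111, 1083 and 625 reads (5.65, 51.3 and 58.5 CPM). In shLacZ the highest level was thus that of d8, whereas shDIS3L2 rose 9.08-fold (7.46 to 11.1) from d8 to d10. The ratio between the lines was 4.77 on d8 (2.95 to 8.12), 60.5 on d10 (29.3 to 151) and 197 on d12 (67.0 to 956), the last resting on 3 reads in shLacZ.

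The other class II genes were scarce. Prelp (ENSMUSG00000041577, chr1:133910304-133921414), which encodes a proteoglycan that anchors basement membranes to collagen, had 1 read at d2 and 1 at d10 in shLacZ and none in the other 5 shLacZ libraries. In shDIS3L2 it had 5, 41 and 50 reads at d8, d10 and d12 (0.254, 1.94 and 4.68 CPM) and none before. The ratio at d10 was 16 (2.72 to 649). At d12 Prelp was 15.7 times the level of 3 reads in shLacZ, with a 95% lower limit of 12.3 for the fold. On 9.68% of its exon bases Prelp overlaps the antisense gene Gm15851, which held 2 reads over all libraries.

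Keratocan (Kera, ENSMUSG00000019932, chr10:97606879-97613692), a keratan sulfate proteoglycan of the cornea, had no read in shLacZ and 1, 5 and 1 reads in shDIS3L2 at d8, d10 and d12. Osteomodulin (Omd, ENSMUSG00000048368, chr13:49582766-49592609), known from bone matrix, had no read in any of the 14 libraries. The 95% upper limit of its level was 0.0925 CPM at the greatest depth and 0.514 CPM at the lowest. A difference between the lines was not detectable for these genes at this depth.

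**Figure D2:**
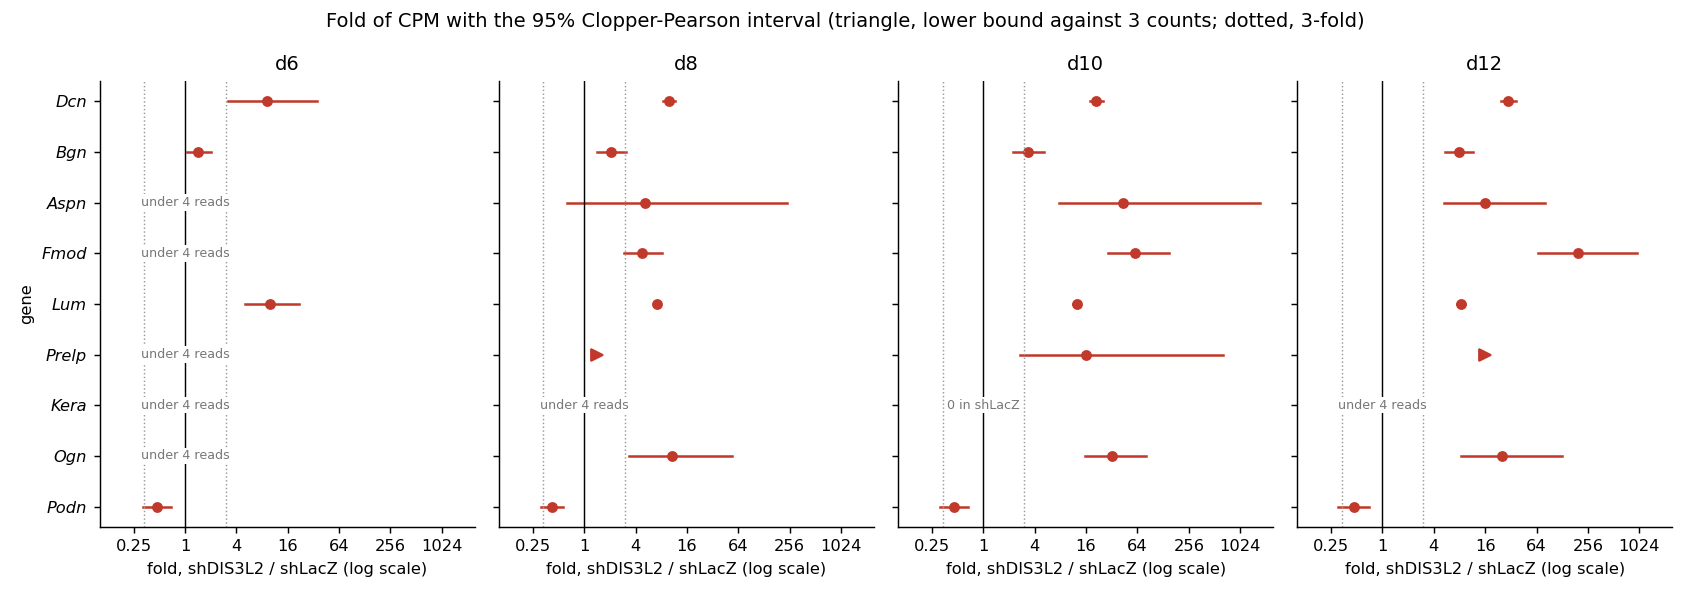
Fold of CPM in shDIS3L2 over shLacZ on a log scale at d6, d8, d10 and d12, 1 library per line and day. Points are the ratio, lines its 95% Clopper-Pearson interval, and triangles the ratio against 3 reads where shLacZ had 0. A triangle is not a 95% limit. All genes with a drawn fold except Podn lie to the right of 1 at d10 and d12, from 3.33 to 60.5 and from 7.79 to 197 for the ratios.

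Of class III, osteoglycin (Ogn, also called mimecan, ENSMUSG00000021390, chr13:49608071-49624500), a matrix protein of bone and vessel wall, had at most 2 reads in any library before d8. In shLacZ it was counted with 3, 7 and 3 reads at d8, d10 and d12 (0.178, 0.847 and 0.298 CPM). In shDIS3L2 it was counted with 37, 574 and 81 reads (1.88, 27.2 and 7.59 CPM). From d10 to d12 in shDIS3L2 it went to 0.279 times (0.218 to 0.353), the lowest such ratio of the members past 1 CPM. Between the lines Ogn differed by 10.6-fold on d8 (3.36 to 53.8), 32.1-fold on d10 (15.5 to 80.2) and 25.5-fold on d12 (8.42 to 126).

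Podocan (Podn, ENSMUSG00000028600, chr4:108014791-108096445), a class V member first described in glomerular podocytes and in vascular smooth muscle, was lower in shDIS3L2 at d0 and from d4 to d12. Over the 7 days shLacZ gave 0.727, 3.9, 8.08, 7.74, 8.64, 7.02 and 7.54 CPM of Podn. For shDIS3L2 the values were 0.151, 4.21, 4.35, 3.68, 3.66, 3.17 and 3.46 CPM. Both lines therefore reached a plateau early, shLacZ by d4 and shDIS3L2 by d2, at different heights. The ratio was 1.08 on d2 (0.803 to 1.44), 0.538 on d4 (0.383 to 0.762) and 0.475 on d6 (0.32 to 0.693). It was then 0.424 on d8 (0.315 to 0.566), 0.452 on d10 (0.313 to 0.654) and 0.46 on d12 (0.302 to 0.69). It reached 3-fold on none of these days. At d0 the ratio was 0.208 (0.0531 to 0.592), from 29 and 4 reads and under 1 CPM in both libraries.

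The members lie mostly in clusters. Dcn, Lum and Kera follow each other on chromosome 10 with gaps of 46985 and 34176 bases, and Epyc, a further SLRP gene, lies 30376 bases beyond Kera. Aspn, Omd and Ogn follow each other on chromosome 13 with gaps of 14897 and 15224 bases, inside introns of Cenpp on the opposite strand, with no shared exon base. Prelp and Fmod lie 115840 bases apart on chromosome 1. Neighbours within a cluster differed in level, with 7 reads of Kera in all beside 3550 of Lum at d12 alone in shDIS3L2, and none of Omd between Aspn and Ogn.

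The 250 bases before the RefSeq start (GRCm38.p6, plus strand, written 5′ to 3′) are shown for the chromosome 13 genes, where a gene without reads lies between 2 that differed, and for Fmod, which had the largest ratio at d12. Capitals mark TATAAA, searched on both strands, so that TTTATA is marked too, and the E-box CANNTG, whose complement has the same form. The windows are chr13:49544193-49544442 for Aspn, chr13:49582212-49582461 for Omd, chr13:49607765-49608014 for Ogn and chr1:134037004-134037253 for Fmod. The counted gene starts at 49582766 for Omd and at 49608071 for Ogn, so their windows end short of it. For Ogn, the bases just after the RefSeq start were not found in a GENCODE transcript of the gene.
Aspn: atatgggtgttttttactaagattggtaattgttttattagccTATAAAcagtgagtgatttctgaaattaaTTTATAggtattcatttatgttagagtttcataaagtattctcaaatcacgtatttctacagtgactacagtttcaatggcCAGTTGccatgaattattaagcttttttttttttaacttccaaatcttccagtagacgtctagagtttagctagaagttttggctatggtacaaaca
Omd: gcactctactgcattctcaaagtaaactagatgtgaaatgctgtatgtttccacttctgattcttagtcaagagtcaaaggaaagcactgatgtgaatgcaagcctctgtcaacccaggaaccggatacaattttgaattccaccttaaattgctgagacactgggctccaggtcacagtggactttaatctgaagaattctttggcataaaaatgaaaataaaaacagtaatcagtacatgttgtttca
Ogn: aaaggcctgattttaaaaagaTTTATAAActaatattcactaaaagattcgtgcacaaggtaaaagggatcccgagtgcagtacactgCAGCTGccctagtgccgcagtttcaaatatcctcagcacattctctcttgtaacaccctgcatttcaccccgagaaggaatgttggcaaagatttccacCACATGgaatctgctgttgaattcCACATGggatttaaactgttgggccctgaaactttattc
Fmod: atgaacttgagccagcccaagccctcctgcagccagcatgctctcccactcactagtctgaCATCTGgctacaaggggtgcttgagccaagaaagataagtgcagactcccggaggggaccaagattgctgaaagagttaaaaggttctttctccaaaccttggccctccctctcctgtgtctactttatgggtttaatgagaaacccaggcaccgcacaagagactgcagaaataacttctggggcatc
TATAAA was present in the windows of Aspn and Ogn, in Ogn as 2 overlapping matches on opposite strands, and was not matched in those of Omd and Fmod. It is held by 13% of 27025 promoter windows of this length. CANNTG had 1 match in Aspn, 3 in Ogn, 1 in Fmod and 0 in Omd, and is held by 66.0% of all windows. The AP-1 motif TGANTCA, held by 6.87% of all windows, was in none of the 8 member windows in the RefSeq table. These are matches of letters only.

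Levels of different genes were compared per kilobase of exon, with all annotated exon bases of a gene (Dcn 5838, Bgn 6099, Lum 2448). A transcript can be shorter than this, so shares and ratios between genes depend on the length used. By CPM alone, Dcn and Lum stood at 324 and 332 at d12 in shDIS3L2. Of the summed CPM per kilobase of the 10 genes, Lum made up 84.0%, 78.3% and 78.5% in shLacZ on d8, d10 and d12. In shDIS3L2 its share was 89.0%, 73.4% and 61.7%. Dcn took 6.04%, 11.2% and 8.92% in shLacZ and 8.79%, 17.8% and 25.2% in shDIS3L2, so the makeup shifted from Lum to Dcn most in the shDIS3L2 line. Fmod went from 0.88% at d8 to 4.33% at d10 and 8.04% at d12 in shDIS3L2, against 1.25%, 0.95% and 0.434% in shLacZ. Podn took 7.05%, 6.1% and 8.5% in shLacZ and under 1% in shDIS3L2 on these days, with 0.442%, 0.207% and 0.369%.

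The early libraries had another makeup. At d2 Podn held 52.3% and Dcn 37.5% in shLacZ, and Dcn 52.1% and Podn 44.8% in shDIS3L2. At d4 Podn led in both lines, with 56.0% and 70.7%. At d6 Podn still led in shLacZ with 58.8%, followed by Bgn with 29.6%, whereas in shDIS3L2 Lum led with 53.2%, followed by Bgn with 23.0%.

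**Figure D3:**
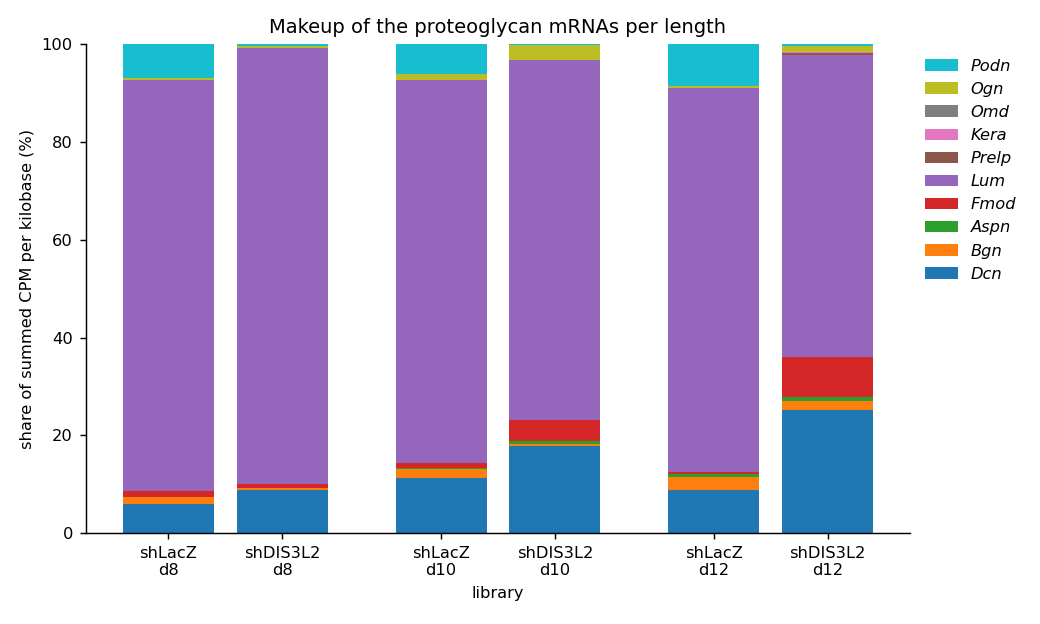
Share of each gene in the summed CPM per kilobase of exon of the 10 genes, in percent, in the 6 libraries of d8, d10 and d12. Lengths are all annotated exon bases of a gene, and the shares depend on them. Lum fills most of every bar, and in shDIS3L2 the Dcn part grows from 8.79% at d8 to 25.2% at d12 and the Fmod part from 0.88% to 8.04%.

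As ratios of levels per kilobase, Dcn to Lum in shLacZ was 0.0719 on d8 (95% interval 0.0608 to 0.0847), 0.143 on d10 (0.118 to 0.173) and 0.114 on d12 (0.0912 to 0.141). In shDIS3L2 it was 0.0988 on d8 (0.094 to 0.104), 0.242 on d10 (0.235 to 0.249) and 0.408 on d12 (0.389 to 0.428). Fmod to Lum in shDIS3L2 was 0.00989 on d8, 0.059 on d10 and 0.13 on d12. For the chromosome 13 neighbours, Ogn to Aspn in shDIS3L2 was 5.72 on d8 (2.39 to 16.6), 4.75 on d10 (3.87 to 5.87) and 1.47 on d12 (1.02 to 2.13). The members were thus not in fixed proportion to each other over the late days.

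Among 8 other genes of the SLRP family, Tsku, which encodes a secreted antagonist of several growth factors, was the only one to reach 1 CPM at d12, with 15.1 CPM in shLacZ and 34.6 CPM in shDIS3L2 (2.3-fold, 1.9 to 2.8). Epyc, beyond Kera, had 8, 4 and 2 reads at d8, d10 and d12 in shDIS3L2 and 1 read in shLacZ over all days, at d10. Scaled to depth, its ratio at d10 was 1.565 (0.155 to 77.1). With 0 reads in shLacZ, the 95% lower limit of the fold was 1.47 at d8 and 0.177 at d12. On any 1 day at most 2 of the 8 reached 1 CPM and could be compared, and none of those was at least 3-fold higher or lower.

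The fibrillar and fibril-associated collagens, the main ligands of SLRPs, were higher together with them. Of 17 genes compared at d12, 13 were at least 3-fold higher in shDIS3L2 and none lower, with a median log2 fold of 3.05, beside 8.1% of all genes. Summed, shLacZ and shDIS3L2 held 1428 and 8602 CPM of them at d8, 1599 and 16190 CPM at d10, and 1116 and 18500 CPM at d12. Col6a2, of beaded filaments, was 27.1-fold (23.4 to 31.5) higher at d12 and Col1a2, of type I collagen, 24.8-fold (23.5 to 26.3). Col2a1, the cartilage collagen, stood at 17.3 and 25.4 CPM (1.47-fold, 1.21 to 1.79).

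The sugar chains are built by another set of enzymes. Of 20 genes for linkage, chondroitin and dermatan sulfate synthesis compared at d12, only Chst11, a chondroitin sulfotransferase, was at least 3-fold higher (5.17-fold, 4.13 to 6.53), none was lower, and the median log2 fold was 0.33, a share of higher genes near the 8.1% of all genes. Of 4 for keratan sulfate synthesis, Chst2, a sulfotransferase, was higher (7.16-fold, 5.56 to 9.34) and the median was 0.41.

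Of 9 enzymes that process or cleave SLRPs compared at d12, 7 were higher and none lower, with a median log2 fold of 1.83. Of all genes compared at d12, 8.1% were higher and 1.41% lower, the background for each list in this paragraph. Bmp1, the protease that trims the propeptide of several SLRPs, was at 73.6 and 224 CPM (3.04-fold, 2.8 to 3.31), and Adamts5, an aggrecanase, at 0.992 and 11.1 CPM (11.2-fold, 5.9 to 24.0). Of 16 growth factors and receptors bound by SLRPs, 3 were higher and none lower, with a median of 0.83. Tgfb3, a ligand sequestered by Dcn and Fmod, was at 2.38 and 67.4 CPM (28.3-fold, 18.9 to 44.5), while Bmp2 was at 24.2 and 11.3 CPM (0.468-fold, 0.373 to 0.585). Of 18 other proteoglycan core proteins, 5 were higher and 1 lower with a median of 0.66, among them Vcan, the large hyaluronan-binding versican, at 299 and 1592 CPM (5.32-fold, 5.12 to 5.54).

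**Figure D4:**
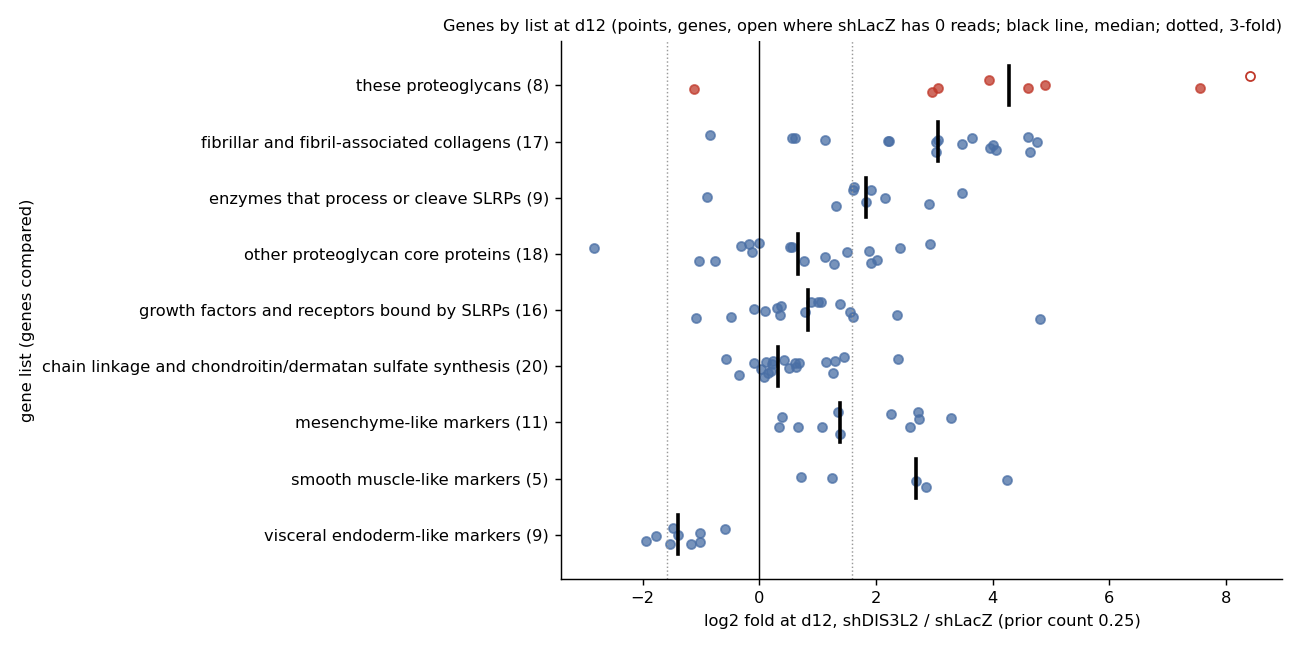
Log2 fold in shDIS3L2 over shLacZ at d12 (prior count of 0.25), 1 library per line, for genes with at least 1 CPM in 1 of these libraries. Points are genes, open where shLacZ had 0 reads so that the fold depends on the prior, black lines are list medians and dotted lines mark 3-fold. The proteoglycans (median 4.28) and collagens (3.05) lie farthest to the right, and the visceral endoderm-like markers (median -1.39) to the left of 0.

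Marker genes of cell types were examined in the same libraries. Of 11 mesenchyme-like markers, 4 were at least 3-fold higher in shDIS3L2 at d8, 8 at d10 and 5 at d12, and none was lower, beside 5.47%, 8.65% and 8.1% of all genes higher on these days. Their summed level was 1090 and 3828 CPM at d8, 923 and 3588 CPM at d10, and 977 and 2269 CPM at d12 in shLacZ and shDIS3L2, with no marker at 0 in both lines. Prrx1, a limb and head mesenchyme factor, was 9.73-fold (7.02 to 13.8) higher at d12 and Pdgfra, the mesenchymal growth factor receptor, 1.31-fold (1.26 to 1.36). From d10 to d12 in shDIS3L2, in which this sum went from 3588 to 2269 CPM, Lum and Ogn also went down, Dcn was at 0.871 times (0.837 to 0.907) and Aspn at 0.9 times (0.634 to 1.26), whereas Fmod was at 1.14 times (1.03 to 1.26), Bgn at 2.36 times and Prelp at 2.41 times (1.56 to 3.74) the d10 level.

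The 5 smooth muscle-like markers summed to 160.5 and 2131 CPM at d8, 94.2 and 933 CPM at d10, and 70.5 and 471 CPM at d12, with 3 of 5 at least 3-fold higher at d12. The d12 counts here stand beside 8.1% of all genes higher and 1.41% lower. Of 9 tendon and ligament genes, 7 could be compared at d12, of which 3 were higher, with a median of 1.29, among them Tnc, a tenascin, at 32.6 and 187 CPM (5.72-fold, 5.08 to 6.44). Of 9 chondrocyte-like and osteoblast-like markers, 4 could be compared at d12, none was higher or lower, and 2 had no read in either library. Visceral endoderm-like markers went the other way, with summed levels of 3786 and 1089 CPM at d10 and 2755 and 1009 CPM at d12, where 2 of 9 were lower and none higher. The part of any of these cell types in the difference in SLRP mRNA was not tested.

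For the 5 members that reached 10 CPM, the 3 genes with the most similar course over the 14 libraries were sought among 11568 protein-coding genes by Pearson correlation of log2(CPM + 1). For Dcn they were Epha3 (0.98), an ephrin receptor, Ntrk2 (0.98), a neurotrophin receptor, and Vcam1 (0.97), a cell adhesion molecule. For Fmod they were Srpx (0.99), Srpx2 (0.98) and Fibin (0.98), and for Lum the transcription factor genes Sox5 (0.99) and Tshz2 (0.99) and the caveolar gene Sdpr (0.98). Ogn was followed by the glutamate receptor gene Gria1 (0.97), Pnoc (0.95) and Angptl1 (0.95), and Bgn by Parp3 (0.96), Nbl1 (0.95) and Zfp36l1 (0.95).

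Among the members themselves, the correlation was 0.96 for Fmod with Ogn, 0.91 for Dcn with Lum and with Fmod, and 0.66 for Dcn with Bgn. Bgn had the lowest values with each of the other 4, from 0.66 to 0.72. These values describe 14 libraries of 2 time courses that share days and lines and are not independent points. Leaving out each library in turn, the value lay between 0.957 and 0.981 for Fmod with Ogn and between 0.522 and 0.738 for Dcn with Bgn, the lowest without shDIS3L2 at d12. By rank correlation, only Zfp36l1 for Bgn remained among the 3 most similar genes.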

How the data were processed

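RNA of 14 libraries was sequenced. The authors aligned reads to GRCm38 (Ensembl release 88) with Subread, counted them with featureCounts and deposited whole-number counts per gene without normalization. Whether counting used strand is not given in the sources used here. The deposited CPM values were made by the authors with edgeR and equal (count + 0.25) divided by the sum of these over the 16181 protein-coding genes of that table. They served as an alternative.

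CPM was computed from counts over library totals of all genes, and folds for calls used a prior of 0.25 reads, scaled by library. The criterion was a fold of at least 3 with 1 CPM in 1 of the libraries compared, over 21889 protein-coding genes (types from the deposited table and GENCODE M21). Exact intervals cover counting error only, as PCR copies cannot be told from separate molecules here. Alternatives were TMM factors (edgeR 4.0.16), DESeq2 1.42.0 size factors, deposited CPM, a prior of 2, no minimum or 10 CPM, and 2-fold. Promoter windows are from RefSeq, in which 8 of the 10 genes matched by symbol. The fold criterion and intervals were tested on simulated Poisson counts with folds planted in genes well above the floor. Such counts hold no variation between cultures, so this checks the calculation only and not genes near the floor.

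The members, gene lists and rules were chosen with earlier results of these data known. Named genes are the 10 members, the 3 most correlated genes per member of at least 10 CPM, at most 2 highest and 2 lowest folds at d12 per list among genes of at least 10 CPM, and Dis3l2. Epyc, Prelp's antisense gene and Cenpp were named after their values were seen. Python 3.11.15, numpy 2.4.6, pandas 2.3.3, scipy 1.17.1, matplotlib 3.10.9 and R 4.3.3 were used.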

Additional observations from a re-analysis of the deposited data

Results flagged for a closer look

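For 2 members the difference between the lines pointed in opposite directions on different days. Bgn stood at 0.411 times the shLacZ level at d2 and at 7.79 times at d12. Lum stood at 0.0315 times at d4, from 1 read against 11, and at 12.5 times at d10. The difference between days was not tested, since each line was sequenced once a day.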

How the results depend on the processing

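Under TMM factors, DESeq2 size factors, deposited CPM and a prior of 2, the log2 fold of every member above the floor kept its direction on every day. Under TMM factors 1 member was lower at d0, and the background there was 0.949% higher and 1.63% lower, against 1.39% and 0.959% with DESeq2 size factors. Without a minimum CPM, 1 member was lower at d0 (5.97% of all genes compared), 1 at d2 (5.19%) and 2 at d4 (6.48%). In that setting 1 was higher at d4 (6.38% of all genes) and 7 at d8 (9.4%). Also 7 were higher at d12 than at d0 in shLacZ, beside 33.75% of all genes. With 10 CPM, 0 were lower at d4 (0.404% of all genes). Then 0 were higher at d6 (1.525% of all genes), 2 at d8 (3.56%) and 4 at d12 (4.7%). With 10 CPM, 2 were higher at d12 than at d0 in shLacZ (28.1% of all genes) and 4 in shDIS3L2 (39.6%). At 2-fold, 1 was lower at d2 (1.16% of all genes), 2 at d4 (5.11%), and 1 each at d6, d8, d10 and d12. The share of all genes lower on those last days was 8.32%, 8.49%, 8.68% and 4.21%. With all 10 members and those at the floor at their bound, the median log2 fold was 0.0 at d4, where it was -1.26 over 4 genes, 0.0 at d6, where it was 1.83, and 0.909 at d8, where it was 2.54. The minimum CPM and the bound act by construction through the number of genes near the floor that they admit. Members such as Aspn, Prelp, Kera and Omd are limited by depth, since 3 reads in shDIS3L2 at d12 are 0.281 CPM. No fit with day as a block was made, since the members were chosen on these differences and the days of 1 series are not replicates. A fold on 1 day uses 1 library per line, so none can be left out of it. Leaving out each library in turn, an alternative chosen after seeing the data, all correlations between members stayed positive.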

Other observations

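Of 8 pluripotency genes none was at least 3-fold higher or lower at d12, with summed levels of 549.5 CPM for shLacZ and 377 CPM for shDIS3L2, whereas at d6 7 of 8 were lower, with 387 and 65.5 CPM. Of all genes, 4.23% were lower at d6, and 8.1% were higher and 1.41% lower at d12. Of 5 cardiomyocyte-like markers compared, 3 were higher at d12, with Myh6 at 8.33 and 32.3 CPM. Of 5 neural-like markers compared, 1 was lower, and of 5 endothelial-like markers none was higher or lower, with Cdh5 at 119 and 55.4 CPM. All 4 blood-like markers compared were higher at d12, with summed levels of 5.55 and 27.9 CPM.

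Some genes of the SLRP family had courses unlike the 10 members. Chadl was at 7.14 and 8.88 CPM in undifferentiated ESCs and under 1 CPM on all later days in both lines. Optc, 2305 bases from Prelp, reached 2.79 CPM (shLacZ) and 6.47 CPM (shDIS3L2) at d4 and under 1 CPM in the other 12 libraries. Both genes were named after their values were seen.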
